A study of Mus musculus with 2 samples.

Results

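The genomic neighbourhoods of Pou5f1 and Nanog were examined for binding of CTCF, in windows of 350 kb around each gene. The Pou5f1 window was chr17:34950001-35300000 and the Nanog window chr6:122500001-122850000, both in the mouse build mm8. The windows are defined by coordinates, around genes placed near 35.11 Mb and 122.67 Mb. These gene positions are known only to 10 kb. Together the windows hold 700 bins of 1 kb, of 2630648 such bins on the 21 assembled chromosomes, and 47 of the 34781 CTCF-enriched regions of the genome.

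The series compared 1 library of DNA from chromatin immunoprecipitation (ChIP) with an antibody to CTCF and 1 library of whole-cell extract, the input chromatin without immunoprecipitation. Both came from V6.5, a male mouse embryonic stem cell line of genotype 129SvJaexC57BL/6, at passages 10 to 15, with no treatment named. The cells had been grown on irradiated embryonic fibroblast feeders and were then passaged 2 to 3 times on gelatin to remove them. The libraries are genomic DNA, so the labelled cell type could not be checked against expressed markers. The ChIP library held 2371134 aligned reads and the extract 4691104, from lanes of 2528408 and 2162696 reads. There were no replicates. Every difference is therefore between these libraries, and the intervals given (95%, exact) and the floor of 3 counts measure counting error alone.

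CTCF is a zinc-finger protein that binds DNA at a long sequence element and, together with cohesin, marks the ends of many chromatin loops and the borders between domains. Pou5f1 encodes Oct4, a POU-family transcription factor, and Nanog encodes a homeobox transcription factor. Both take part in the pluripotent state and are active in embryonic stem cells. In the RefSeq gene order of GRCm38.p6, the protein-coding neighbours on the low-coordinate side of Pou5f1 are H2-Q10, H2-Q7 and H2-Q6, of a family of similar class I histocompatibility genes. On the other side follow Tcf19, Cchcr1 and Psors1c2. Nanog lies between Dppa3, a gene of germ cells and early embryos, and Slc2a3, which encodes a glucose transporter. Beyond Dppa3 lie Gdf3 and Apobec1, and beyond Slc2a3 lie Foxj2 and C3ar1. No mm8 annotation was used here, so regions are placed by distance from the approximate gene positions and not within genes.

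The 250 bases before each gene's start are shown because an enriched region lay within 10 kb of each approximate gene position. They are from RefSeq (GRCm38.p6, plus strand), at chr17:35505782-35506031 for Pou5f1 and chr6:122707239-122707488 for Nanog. These coordinates belong to that build and do not correspond to the mm8 positions given elsewhere. Capitals mark matches, on either strand, to CCCTC, the word that gave CTCF its name, or to AGGNGGC, a part of its longer element.

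Pou5f1: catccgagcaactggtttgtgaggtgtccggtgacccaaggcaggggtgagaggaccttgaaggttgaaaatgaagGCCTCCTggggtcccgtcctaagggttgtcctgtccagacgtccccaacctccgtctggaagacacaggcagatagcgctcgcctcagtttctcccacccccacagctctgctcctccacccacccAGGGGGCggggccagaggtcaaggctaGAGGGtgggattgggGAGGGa

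Nanog: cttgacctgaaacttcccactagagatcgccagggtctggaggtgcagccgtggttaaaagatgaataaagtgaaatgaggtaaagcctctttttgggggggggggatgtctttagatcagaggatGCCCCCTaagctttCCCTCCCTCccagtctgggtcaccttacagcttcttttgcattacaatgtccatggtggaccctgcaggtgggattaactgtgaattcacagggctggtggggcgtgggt

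The Pou5f1 sequence held 2 matches to CCCTC and 2 to AGGNGGC. The Nanog sequence held 2 matches to CCCTC, which overlap by 1 base, and 1 to AGGNGGC. No match to one word overlapped a match to the other in these sequences. Such short words are common: of 32851 upstream sequences of the same length, 19891 (60.5%) held CCCTC and 8214 held AGGNGGC on at least 1 strand. The matches describe letters and are not sites of binding.

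Both windows were rich in CTCF-bound DNA. Reads were counted by their 5′ ends, moved 102 bp towards the 3′ end to the middle of the fragment. The Pou5f1 window held 1006 ChIP reads and 623 extract reads, or 424 and 133 RPM (reads scaled by library size). Scaled by library totals, ChIP was 3.19 times the extract there (95% interval 2.89 to 3.54). The Nanog window held 1058 ChIP and 831 extract reads, or 446 and 177 RPM, a ratio of 2.52 (2.30 to 2.76). The same ratio was 1.109 over all of chromosome 17 and 1.004 over all of chromosome 6. Using the extract lanes singly, the Pou5f1 ratio was 3.11 (2.75 to 3.52) and 3.30 (2.89 to 3.78), and the Nanog ratio was 2.69 (2.40 to 3.02) and 2.34 (2.09 to 2.63).

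Enriched 1-kb bins were those with at least 5 times the expected ChIP count and an adjusted p under 0.001. The test was a one-sided exact Poisson test, with Benjamini-Hochberg adjustment over all 1107933 bins of the genome that held a ChIP read. What was expected in a bin was set by the genome average or by the scaled extract in 1, 5 or 10 kb around it, whichever was highest. Of the Pou5f1 window's 177 bins with a ChIP read, 20 (11.3%) were enriched, against 3.07% on chromosome 17 and 2.60% in the genome. Of the Nanog window's 243 such bins, 22 (9.05%) were enriched, against 2.48% on chromosome 6. Both shares lay above their backgrounds. With sliding 200-bp windows and the same limits, 23 enriched regions had their summit in the Pou5f1 window and 24 in the Nanog window. These regions held 63.1% of the Pou5f1 window's ChIP reads and 5.62% of its extract reads, on 11.8 kb. In the Nanog window they held 50.9% and 3.49%, on 10.8 kb. The ChIP reads that called a region are also the ones counted in it, so the values of single regions are descriptions.

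**Figure D1:**
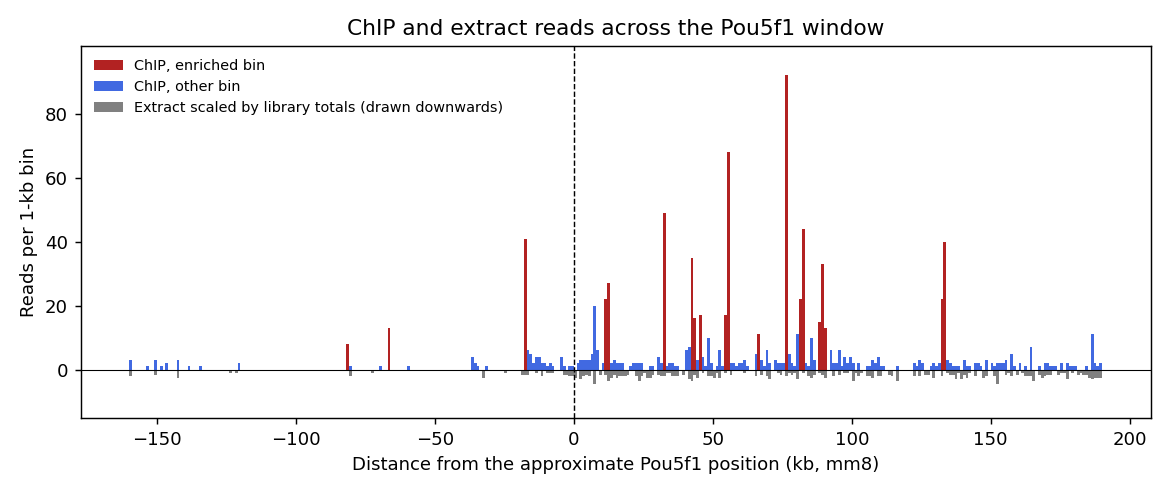
ChIP reads (bars upwards, red in enriched bins) and extract reads scaled by library totals (grey, downwards) in each 1-kb bin of the Pou5f1 window, by distance from the approximate gene position (dashed line). The 20 enriched bins crowd on the high-coordinate side, and both libraries are nearly empty over much of the low-coordinate side.

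The Pou5f1 window was lopsided. Its strongest regions all lay on the side of Tcf19 and Cchcr1. On the low-coordinate side, 160 kb long and bordering on the H2-Q genes, 5 regions held 65 ChIP reads. The other side, 190 kb long, had 18 regions with 570 ChIP reads. Per 100 kb this was 3.12 regions (95% interval 1.01 to 7.29) against 9.47 (5.61 to 15.0). All 8 regions of the window with at least 40 ChIP reads were on the high-coordinate side.

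The extract was uneven in the same way. It held 0.606 reads per kb on the low side and 2.77 on the high side, and 66.2% of the low side's 1-kb bins held no extract read, against 14.2% on the high side. In steps of 50 kb from the low end, the extract gave 29, 15, 33, 158, 122, 121 and 145 reads. The first 3 of these steps, up to 35100000, were therefore nearly empty in the library that was not enriched. Per 1000 extract reads the low side had 51.5 regions and the high side 34.2, the opposite order. The low side's value rests on 5 regions and 97 extract reads. Of these regions, 3 held only 5 or 6 ChIP reads, all on a single strand, and no extract read. The opposite order was given no interval, was not tested and was not examined without those 3. How many of the low side's reads could not be placed among similar gene copies was not tested.

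A dense array of CTCF regions lay on the high side. The 50 kb from chr17:35150001 to 35200000, singled out after its values were seen, held 10 regions and 485 ChIP reads against 122 extract reads, a ratio of 7.87. It had 59.7% of the ChIP reads in regions of the window. Of the 1822 steps of 50 kb with an extract read on chromosome 17, in which the median held 0 regions and 38.0 ChIP reads, none had as many regions and none had more ChIP reads.

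The strongest region of either window was in this array, at chr17:35186151-35187300, with its summit 76.5 kb above the Pou5f1 position. It held 96 ChIP reads (77.8 to 117) beside 3 in the extract, which is 63.3-fold (21.0 to 312) after scaling. By ChIP reads it ranked 47 of 34781 in the genome. The next, at chr17:35164751-35165600 and 55.0 kb above the gene position, held 82 ChIP reads (65.2 to 102) and no extract read. Against a floor of 3 extract reads its ChIP count was 54.1-fold higher, with an exact lower 95% limit of 43.0 on the ratio, and the region ranked 119 in the genome. The third, at chr17:35152651-35153250, held 46 ChIP reads (33.7 to 61.4) beside 3 in the extract, which is 30.3-fold (9.75 to 152) after scaling. The intervals of the strongest pair overlap each other, and both lie above that of the third.

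Several other strong regions were close to the third in total ChIP reads. Regions at chr17:35121251-35122450, chr17:35142351-35142850 and chr17:35198701-35199350 all had 45 ChIP reads, beside 6, 4 and 2 extract reads. One at chr17:35192051-35192800 held 43 ChIP and 2 extract reads, and one at chr17:35243301-35244100 held 41 and 0. The intervals of these 5 regions overlap that of the third, so their order is not resolved by counting. Totals were not corrected for region length. The regions at chr17:35121251-35122450 and chr17:35243301-35244100 were 1200 and 800 bp long, against 600 bp for the third. Their highest 200-bp windows held 18 reads each, against 31 in the third. Of the 23 regions, 34.8% held at least 40 ChIP reads, against 8.58% of the 1526 regions of chromosome 17 and 6.37% of all regions.

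At the approximate Pou5f1 position no enriched region was found, but the nearest, 7.5 kb away, lay within the 10-kb error of that position. Absence at the gene itself can therefore not be told. The position lay in a gap of 22.9 kb between summits, against a median gap of 5.76 kb in the window, and 47.7% of gaps on chromosome 17 were longer. A gap that holds a given position tends to be a long one, so that share is not a like comparison. The 1-kb bin at the gene position held 0 ChIP and 5 extract reads. Within 5 kb on either side there were 18 ChIP and 32 extract reads, a ratio of 1.11 (0.588 to 2.04), and none of the 10 bins was enriched. The highest of them held 4 ChIP reads. Scaled by library totals, an excess of ChIP reads within 5 kb was not detectable at this depth. The interval included both 1 and 0.739, the ratio of chromosome 17 outside regions and their 1-kb flanks. The smaller extract scale tried at the end (0.246 in place of 0.505) would raise this ratio and was not applied to it. Within 10 kb there were 56 ChIP and 56 extract reads, a ratio of 1.98 (1.34 to 2.92), with 1 enriched region among them. Outside that region the counts were 39 and 51, a ratio of 1.51 (0.971 to 2.34), whose interval included 1 but lay above 0.739.

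The gap was bordered by a region of middling strength on the high side and a weak one on the low side. On the high side the nearest region, at chr17:35117351-35117750, had its summit 7.5 kb from the gene position. It held 17 ChIP reads (9.90 to 27.2) beside 5 in the extract, which is 6.73-fold (2.38 to 23.3) after scaling. By ChIP reads its percentile among regions of the genome was 55.3. Its 1-kb bin held 20 ChIP and 9 extract reads. At 4.40 times the expected count that bin fell short of the limit of 5, although its adjusted p was 3.75e-06 (exact Poisson test). The strong region with 45 ChIP reads followed at 12.1 kb.

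On the low side the nearest region was 15.4 kb away, at chr17:35094451-35094650, and held 5 ChIP reads, all on the plus strand, and no extract read. Against the floor of 3 extract reads this was 3.30-fold higher, with a lower limit of 1.81 on the ratio. At 17.7 kb, the region at chr17:35092001-35092600 held 37 ChIP reads (26.1 to 51.0) beside 1 in the extract, which is 73.2-fold (12.3 to 2968) after scaling. This was the strongest region of the low side and was above 91.7% of regions in the genome by rank. At an adjusted p under 1e-06 it became the nearest region on that side. Since the gene position is known only to 10 kb, whether the region at 7.5 kb lies within Pou5f1 or beside it cannot be told.

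The weakest regions of the Pou5f1 window, with 5 ChIP reads each, were the one at 15.4 kb and those at chr17:35073851-35074100 and chr17:35205251-35205450, none with an extract read. Reads of a single strand made up 3 of the window's 23 regions, all on the low side and of 5 or 6 reads. In the genome this was so for 1.24% of regions, and for 7.42% of the 4272 regions with at most 6 reads. Of the window's own regions with at most 6 reads, only the one at chr17:35205251-35205450 held both strands. The low side's count of 5 regions includes the 3 of a single strand. The longest gap between summits in the window, 53.0 kb, ran from 35243900 to 35296850 at the high end. It held 146 extract reads, so reads did align there, and 64 ChIP reads. On chromosome 17, 25.2% of gaps were longer.

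**Figure D2:**
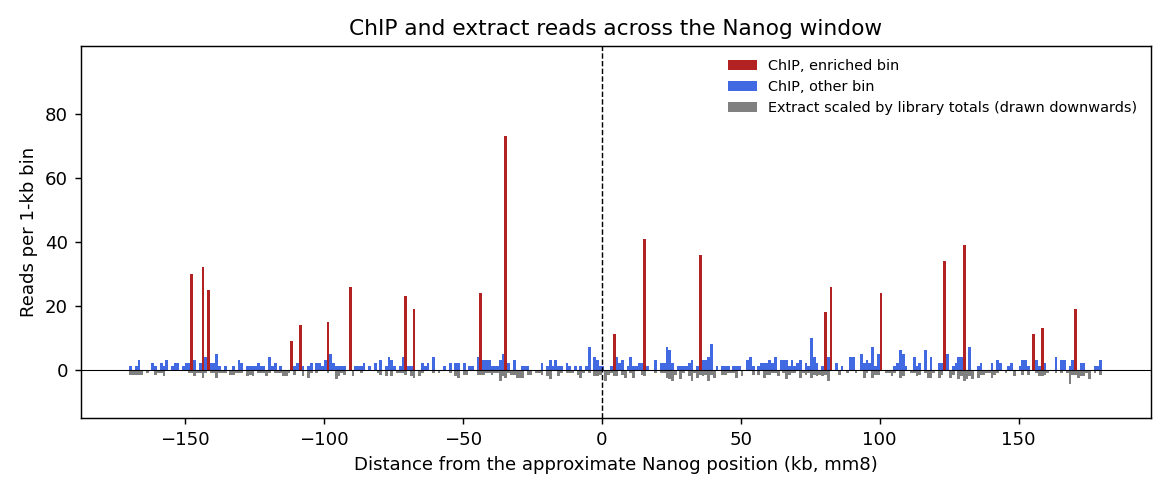
ChIP reads (bars upwards, red in enriched bins) and extract reads scaled by library totals (grey, downwards) in each 1-kb bin of the Nanog window, by distance from the approximate gene position (dashed line). The 22 enriched bins are spread over both sides of the gene, with the highest bin in the region 34.8 kb below it.

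In the Nanog window the 2 sides held similar numbers of regions. The low side, which runs towards Dppa3 and Gdf3 and is 170 kb long, had 11 regions with 265 ChIP reads. The high side, towards Slc2a3 and 180 kb long, had 13 regions with 274 ChIP reads. Per 100 kb these were 6.47 (3.23 to 11.6) and 7.22 (3.85 to 12.4) regions. The extract was less uneven than around Pou5f1. It held 2.12 reads per kb on the low side and 2.61 on the high side, with 15.9% and 14.4% of bins empty. Each of the 7 steps of 50 kb held between 2 and 5 regions and between 131 and 194 ChIP reads. All of them lay above the chromosome 6 medians of 0 regions and 35.0 ChIP reads.

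One region of the Nanog window stood above the others. At chr6:122634901-122635500, with its summit 34.8 kb below the gene position, it held 75 ChIP reads (59.0 to 94.0) beside 5 in the extract, which is 29.7-fold (12.2 to 94.0) after scaling. It ranked 181 of 34781 in the genome. It was also the nearest region on the low side of the gene. The second, at chr6:122685551-122686050 and 15.8 kb above the gene position, held 42 ChIP reads (30.3 to 56.8) beside 2 in the extract, which is 41.5-fold (10.8 to 354) after scaling. The third, at chr6:122799951-122800550, held 36 ChIP reads (25.2 to 49.8) beside 3 in the extract, which is 23.7-fold (7.50 to 120.5) after scaling. The intervals of the second and the third overlap, and that of the strongest lies above both.

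The strongest pair thus lay on either side of Nanog. Between them was 1 further region, at chr6:122674651-122674950, whose summit was 4.8 kb above the gene position. It held 8 ChIP reads (3.45 to 15.8) and no extract read, which is 5.28-fold higher against the floor of 3 extract reads, with a lower limit of 3.38 on the ratio. It was above 20.3% of regions in the genome by rank. At an adjusted p under 1e-06 it was no longer enriched, and the nearest region on the high side was then the one at 15.8 kb. A distance of 4.8 kb is within the error of the gene position, so on which side of Nanog's start this region lies cannot be told.

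The bin at the Nanog position held 1 ChIP read and 1 extract read. Within 5 kb on either side there were 28 ChIP and 30 extract reads, a ratio of 1.85 (1.06 to 3.20). Without the weak region the counts were 20 and 30, a ratio of 1.32 (0.710 to 2.40). Its interval included 1 and also 0.723, the ratio of chromosome 6 outside regions and their 1-kb flanks. Within 10 kb and outside that region the counts were 33 and 55, a ratio of 1.19 (0.747 to 1.86). That interval included 1 but lay above 0.723. These ratios are scaled by library totals, and the smaller extract scale tried at the end would raise them. The bin at 4.5 kb below the gene position, named after its value was seen, held 7 ChIP and 2 extract reads. It was 5.54 times the expected count with an adjusted p of 0.0110 (exact Poisson test) and so did not pass the limit of 0.001. At an adjusted p under 0.05, a region was placed there with its summit 4.45 kb from the gene position. The gap that held the gene was 39.6 kb, against a median gap of 9.93 kb in the window, and 40.3% of gaps on chromosome 6 were longer. As for Pou5f1, that share is not a like comparison.

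The other 21 regions of the Nanog window held between 5 and 35 ChIP reads. Of all 24, 5 held fewer than 10 and 2 held at least 40. The share with at least 40 was 8.33%, against 4.78% of the 1947 regions of chromosome 6. The weakest, at chr6:122763601-122763800, held 5 ChIP reads and no extract read. The longest gap, 41.6 kb, ran from 122709125 to 122750700 on the Slc2a3 side and held 72 ChIP and 107 extract reads. On chromosome 6, 39.3% of gaps were longer.

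**Figure D3:**
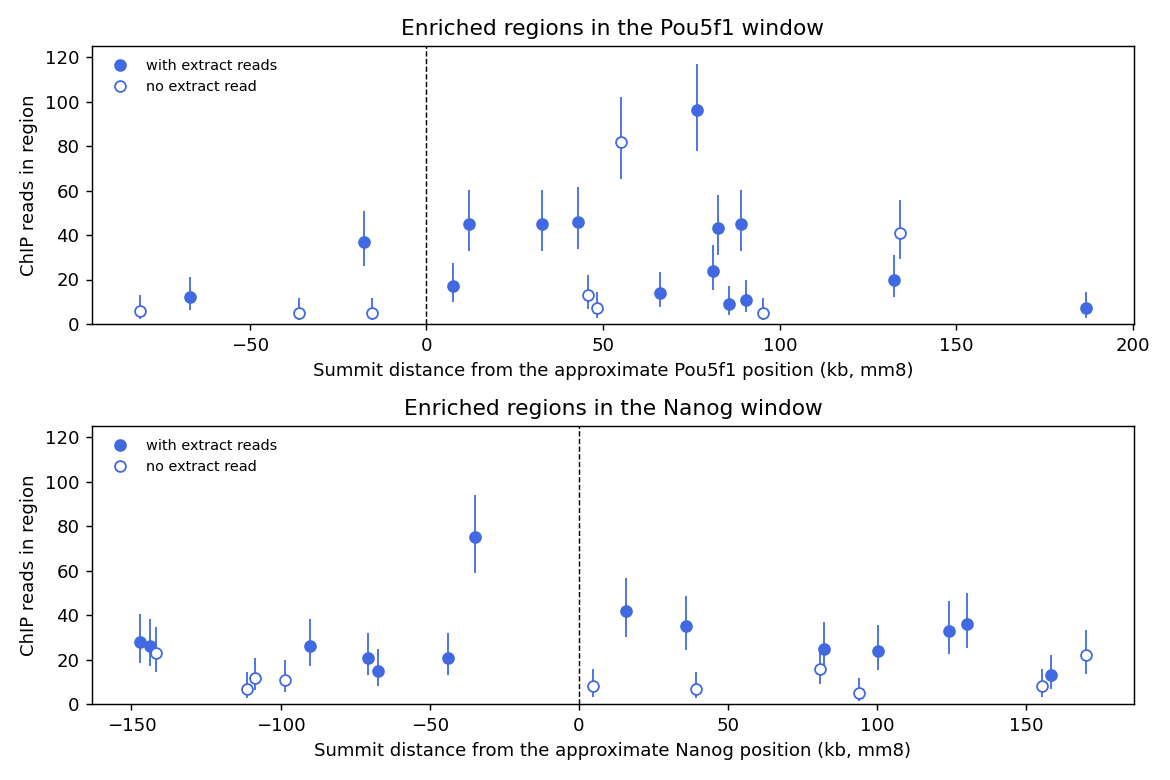
ChIP reads in each of the 23 enriched regions of the Pou5f1 window and the 24 of the Nanog window, by distance of the summit from the approximate gene position (dashed line), with exact 95% Poisson intervals; open circles had no extract read. Regions of 40 or more reads number 8 above Pou5f1 and 0 below it, and 1 on each side of Nanog.

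Regions were close together in both windows. Neighbouring summits were a median of 5.76 kb apart around Pou5f1 and 9.93 kb around Nanog, against 21.2 kb on chromosome 17 and 27.4 kb on chromosome 6. In each window 12 gaps were at most 10 kb long, of 22 around Pou5f1 (54.5%) and of 23 around Nanog (52.2%). On the whole chromosomes these shares were 31.9% and 26.1%. The closest neighbours were 1.40 kb apart in the Pou5f1 window and 1.35 kb apart in the Nanog window.

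Each window was ranked among all 350-kb windows tiled over its chromosome, leaving out those with less than 50% of the chromosome's median extract count. On chromosome 17, with 233 windows, 3 had more ChIP reads than the Pou5f1 window and 145 had more extract reads. Its ratio of 3.19 was the highest of the 233, where the median was 0.949 and the next highest value 2.40. Its 23 regions were matched by 3 other windows and passed by 2, with a median of 5. On chromosome 6, with 392 windows, the Nanog window was first in ChIP reads, ratio, regions and enriched bins, while 92 windows had more extract reads. The medians there were 288 ChIP reads, a ratio of 0.892 and 4 regions. These ranks describe the windows and were not tested.

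**Figure D4:**
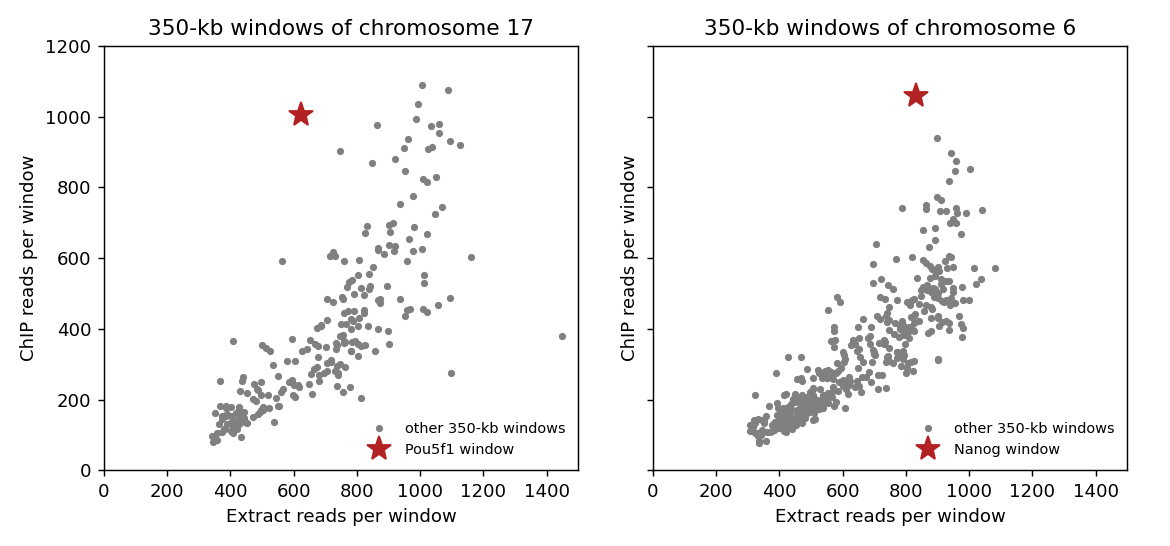
ChIP reads against extract reads in 350-kb windows of chromosome 17 (233 windows) and chromosome 6 (392 windows), with the Pou5f1 and Nanog windows as stars. Both stars lie above the band formed by the other windows, at 1006 and 1058 ChIP reads.

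The signal between the regions was also above that of the chromosomes. Outside regions and their 1-kb flanks, the Pou5f1 window held 262 ChIP and 482 extract reads, a ratio of 1.08 (0.922 to 1.25). The Nanog window held 403 and 677, a ratio of 1.18 (1.04 to 1.33). Over chromosomes 17 and 6 the same ratio was 0.739 (0.733 to 0.746) and 0.723 (0.717 to 0.728). Neither window's interval reached its chromosome's value. Reads of regions too weak to pass the limits are included in these counts.

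The windows were compared with each other in 4 quantities, with p-values adjusted over the 4. The ChIP-to-extract ratio was 1.27 times higher in the Pou5f1 window (95% interval 1.11 to 1.46, two-sided Fisher's exact test, adjusted p = 0.00238). This compares reads of these libraries and not conditions. With the first extract lane alone the factor was 1.15 (p = 0.0982, Fisher's exact test, unadjusted), and with the second lane alone 1.41 (p = 0.000124). Outside regions the factor was 0.913 (0.748 to 1.11, adjusted p = 0.746, Fisher's exact test), so a difference there was not detectable. The numbers of regions, 23 and 24, gave a ratio of 0.958 (0.517 to 1.77, exact binomial test, adjusted p = 1). The numbers of enriched bins, 20 and 22 of 350, gave a ratio of odds of 0.904 (0.458 to 1.77, Fisher's exact test, adjusted p = 1). These tests took regions or bins as independent, although they lie in clusters, so both intervals are likely too narrow. Even so, both leave room for a difference in either direction. The median region held 17 ChIP reads around Pou5f1 and 21.5 around Nanog. At least 40 reads were held by 8 and 2 regions, and fewer than 10 by 7 and 5. These are total reads, not corrected for region length, and the differences were not tested.

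Reads around the summits were ordered by strand as around a point source. In unshifted reads within 250 bp of the summits, the median position in the Pou5f1 window was 99.0 bp below the summit for plus-strand 5′ ends and 102 bp above it for minus-strand ends, 200.5 bp apart. In the Nanog window these were 97.0 and 85.0 bp, 182 bp apart. Summits were placed with the same reads. All 24 regions of the Nanog window and 20 of the 23 around Pou5f1 held reads of both strands. No region of either window departed from equal strands at an adjusted p under 0.05 (exact binomial test, two-sided, adjusted over all 34781 regions), against 0.00863% of all regions. At an unadjusted p under 0.05 there was 1 region in each window. With 3 regions passing in the genome, a further region needed at least 19 reads, all on 1 strand, to pass. Fewer than that were held by 12 of the 23 regions around Pou5f1 and 10 of the 24 around Nanog, so the test could not call those.

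**Figure D5:**
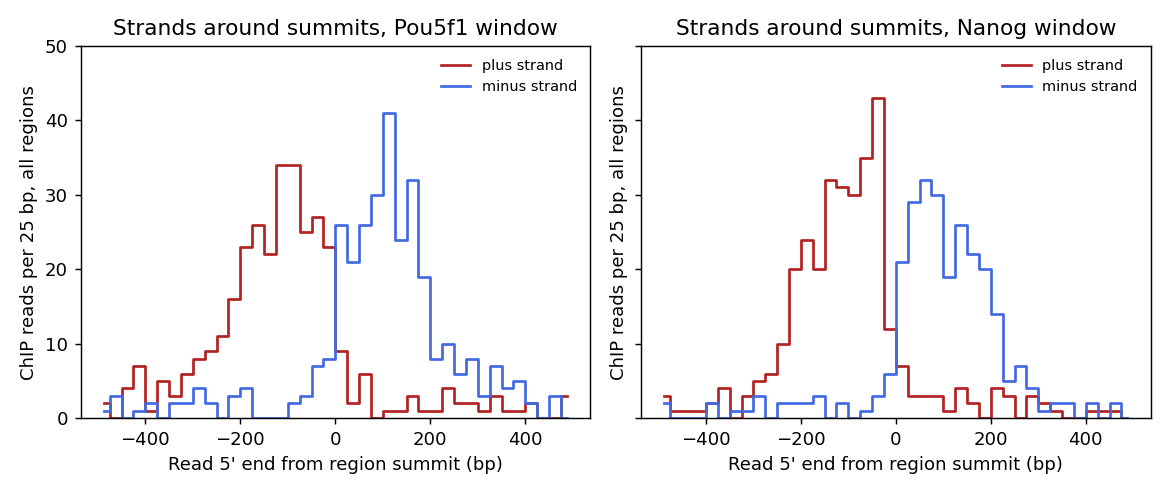
ChIP read 5′ ends per 25 bp around the summits of all enriched regions of each window, before the shift, for the plus strand (red) and the minus strand (blue). Plus-strand ends lie below the summits and minus-strand ends above them, with medians 200.5 bp apart around Pou5f1 and 182 bp apart around Nanog.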

How the data were processed

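Aligned reads were deposited by the authors as positions, 1 read to a line with its strand. The build was mm8, per the submitters' processing notes. Neither aligner nor filter is given in the sources used here. Per the labels' protocols, fragments were ligated to adapters, amplified by 15 cycles of PCR and cut from a gel at about 250 bp, adapters included. All reads were 36 bases, and 0 shared position and strand within a library, so copies from PCR are not counted and the counts of strong regions are numbers of distinct positions. Starts were taken as counted from 0 and are printed counted from 1. Counting, the exact Poisson, binomial and Fisher tests and the intervals used Python 3.11.15 with numpy 2.4.6, pandas 2.3.3 and scipy 1.17.1, and figures matplotlib 3.10.9. The extract was scaled by library totals (0.505). Regions came from 200-bp windows taken at steps of 50 bp, over 6352498 windows with a ChIP read, and passing windows within 200 bp were joined. The caller was also run on simulated reads, with sites added to a background drawn from the same extract that served as control. That setting cannot measure false calls between separately made libraries. Strand tests were adjusted over all regions and not over the 47 alone, as first planned. Every region is counted; those described singly are the 3 strongest and the weakest of each window, those nearest to each gene, the longest gap, and others named as strong. The windows, limits and comparisons were chosen with earlier results of these data known.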

Additional observations from a re-analysis of the deposited data

How the results depend on the processing

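Over 215 values under other settings, 200 stayed within 1.5 times (counts), within their interval (ratios and ranks), within 200 bp (distances) or on the same side of 0.05 (the test). Some of these 200 could not have changed. The limits for calling do not enter the ranks of ChIP reads, extract reads and ratio. Scaling the extract by another constant leaves those ranks and the factor of 1.27 between the windows as they were. The 200 therefore overstates how far the results were tried. Scaling the extract by background bins, 10-kb bins with at most the median ChIP count (0.246 in place of 0.505), gave window ratios of 6.56 (Pou5f1) and 5.17 (Nanog). With 50 kb trimmed from each end the Pou5f1 ratio was 4.04, against 3.19, and the Nanog ratio 2.56, against 2.52. The ratios of the windows then lay further apart, which was not tested. The difference between the windows, 1.27, was 1.15 (p = 0.0982, Fisher's exact test) with the first extract lane and turned to 0.913 (p = 0.373, Fisher's exact test) outside regions, where fewer reads were counted; the cause of the former was not tested. The Nanog window's percentile of extract reads was 67.3 and 86.6 with single lanes, against 76.4. The Pou5f1 window's was 44.9 when all tiled windows were kept, against 37.6. Its percentile of enriched bins was 99.6 with the first lane, against 98.3, and its percentile of regions was 99.8 per 1000 extract reads, an alternative chosen after seeing the data. At an adjusted p under 0.05 the Nanog window had 39 regions, and the nearest summits on the low side were 4.45 kb from Nanog and 12.3 kb from Pou5f1. At 1e-06 the nearest were 15.8 kb above Nanog and 17.7 kb below Pou5f1. No paired analysis was possible because neither library has a replicate, so none could be left out either. At this depth the weak regions are least certain: 7 regions around Pou5f1 and 5 around Nanog held fewer than 10 ChIP reads.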
